A study of Oryza sativa with 9 samples.

Results

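Clade A protein phosphatases of type 2C (PP2C) are negative regulators of the abscisic acid (ABA) pathway. The set described here holds 9 loci of this clade, taken by a list of locus numbers, out of 57931 features in the deposited table. RNA-seq was performed on roots harvested a month after planting, in 3 groups of 3 biological replicates. Common rice, labelled Normal_Rice_R1 (R1) and described as a hybrid strain of low salt tolerance, was grown in fresh water (FW). Sea_Rice_86 (SR86), the sea water adapted cultivar, was grown in FW and, in the third group, in salt water (SW), which the paper calls sea water. Libraries carry the replicate number of their label (SR86 FW1), and lists of 3 values follow that numbering. The labels call both cultivars japonica, whereas the paper places SR86 with indica and R1 as a japonica and indica hybrid, and reads of both were mapped to one transcript set. No library is of R1 in SW, in which the paper says R1 does not survive. Water and strain can thus only be compared through SR86 FW. The salt content of the water is not given in the sources used here.

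In the absence of ABA, clade A PP2Cs dephosphorylate SnRK2 kinases and hold them inactive. When ABA binds its PYR/PYL/RCAR receptors, the complex captures the phosphatase, the kinases are released, and they phosphorylate bZIP factors that switch on dehydrin and other late embryogenesis abundant (LEA) genes. The scheme was worked out largely in Arabidopsis, where the phosphatase genes are themselves induced by ABA and so close a negative feedback loop. In roots, ABA rises when water is hard to take up, as under drought or salt. The table pairs no gene symbols with its loci, so the members keep their locus numbers. Annotations were taken from the paper's lists of differentially expressed genes, which of the 9 hold LOC_Os09g15670 alone, as a putative protein phosphatase 2C. The paper's edgeR test, at 2-fold and a false discovery rate under 0.05, thus called this locus. By the test used here no member was called. The comparison in which the paper called it is not given here.

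Levels are in FPKM, read fragments scaled to transcript length and to the mapped reads of a library, so levels of different loci can be set side by side. Over the 9 libraries the mean level spanned from 51.2 FPKM for LOC_Os01g62760 to 0.228 FPKM for LOC_Os05g49730. LOC_Os01g62760 gave 34.5% of the summed FPKM of the family and LOC_Os01g40094 gave 27.1%, so these 2 loci of chromosome 1 carried most of the clade A signal in these roots. LOC_Os05g46040 (20.3 FPKM) and LOC_Os05g51510 (19.9 FPKM) followed, each with under 14% of the sum. LOC_Os09g15670 had a mean of 8.84 FPKM, LOC_Os03g16170 of 4.81 FPKM, LOC_Os05g38290 of 1.63 FPKM and LOC_Os01g46760 of 1.32 FPKM. Without SR86 FW1 these means were 5.30, 4.06, 1.22 and 1.11 FPKM in the same order. Between neighbours in this order, the ranges over libraries were separate only below LOC_Os01g40094 and below LOC_Os01g46760. LOC_Os05g46040 was above LOC_Os05g51510 in 3 of 9 libraries, and LOC_Os05g38290 above LOC_Os01g46760 in 5 of 9, so the order inside these pairs is not settled. Without SR86 FW1, LOC_Os05g46040 and LOC_Os05g51510 changed places and the other 7 loci kept their rank. Among the 23780 features with a mean of at least 0.5 FPKM, 88.6% had a lower mean than LOC_Os01g62760, and 15.3% had a lower mean than LOC_Os01g46760.

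**Figure D1:**
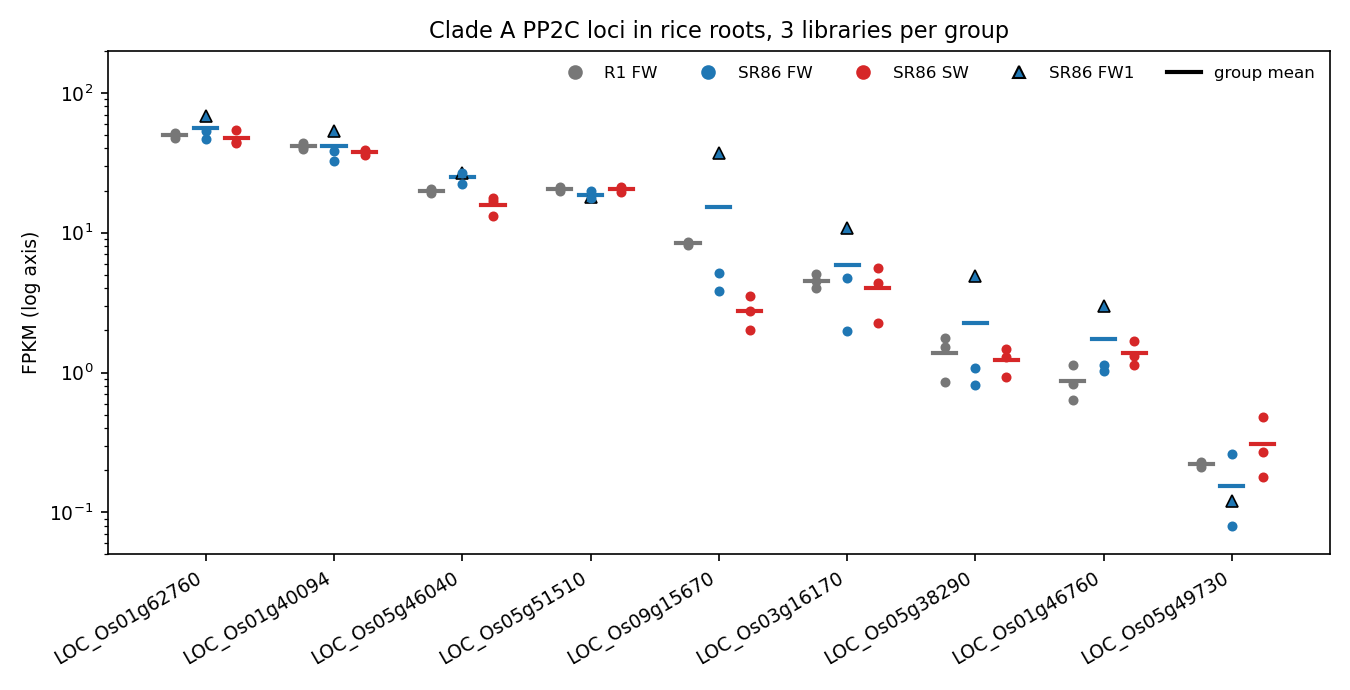
Expression of the 9 clade A PP2C loci, ordered by mean level, with FPKM on a log axis. Each point is a library, coloured by group, the bar is the mean of 3 libraries, and the triangle is SR86 FW1, which lies highest for 7 loci and reaches 37.1 FPKM in LOC_Os09g15670 against at most 8.58 FPKM elsewhere.

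SR86 FW1 stood apart from the other libraries in its markers, though not in depth. Depth can be read from the size of 1 read in low values, and relative to SR86 FW1, the shallowest library, the others held 1.05 to 2.52 times as many reads. The 2 loci fixed as root markers (LOC_Os02g51110 and LOC_Os03g01700) were expressed in every library, at a summed 255 FPKM in SR86 FW1 and 377 to 916 FPKM in the other 8. The 6 loci fixed as leaf markers (photosynthesis genes) summed to 48.0 FPKM in SR86 FW1 and to 4.98 to 16.2 FPKM elsewhere, and 4 of the 6 had a mean of at least 0.5 FPKM, all 4 highest in SR86 FW1, while the other 2 stayed at or below 0.61 FPKM in every library. In bulk roots, a different share of cells of a type and a different amount of RNA per cell cannot be told apart. Results that rest on SR86 FW1 are therefore given with and without it.

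Most clade A loci had their highest level in SR86 FW1. Of the 8 members with a mean of at least 0.5 FPKM, 7 were highest in SR86 FW1, where 10.8% of all such features were highest, and in 4 the SR86 FW1 value was at least 1.5 times that of every other library, which 2.07% of the features showed. Over all features SR86 FW1 was not unusual by the first rule, since the other libraries were highest for 4.46% to 17.5% of features, nor alone by the second, since SR86 SW1 met it for 2.01%. Of the other 8 libraries, R1 FW1 was highest for 1 member, LOC_Os05g51510, and none met the 1.5-fold rule for any. For SR86 FW1 the counts were also 7 and 4 after median-ratio size factors, when 17.5% and 2.95% of features met these rules. The 1.5-fold rule was chosen after the values were seen, and both counts describe 1 library. Summed over the 9 members, SR86 FW1 had 222 FPKM, and the other 8 libraries had 121 to 149 FPKM.

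LOC_Os09g15670 was the most variable of the members. It had 37.1, 3.82 and 5.16 FPKM across SR86 FW, 8.46, 8.10 and 8.58 FPKM across R1 FW, and 2.01, 3.52 and 2.74 FPKM across SR86 SW. The R1 libraries thus lay within 1.06-fold of each other while the SR86 FW libraries spread over 9.72-fold, and all 3 SW libraries were below every FW library of either strain. The value of SR86 FW1 was 4.33 times the highest of the other 8 libraries. In R1, the coefficient of variation was 2.98%, and in SR86 FW it was 123%. Without SR86 FW1 the order R1 FW, SR86 FW, SR86 SW held for every single library, with no overlap between groups. The share of all features with such an order was not counted.

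LOC_Os05g38290, LOC_Os03g16170 and LOC_Os01g46760 are lowly expressed members with the same high library. LOC_Os05g38290 had 4.87, 1.07 and 0.82 FPKM across SR86 FW, against 0.86 to 1.78 FPKM in R1 and 0.93 to 1.48 FPKM in SR86 SW. LOC_Os03g16170 had 10.9, 1.97 and 4.73 FPKM across SR86 FW, against 4.0 to 5.08 FPKM in R1 and 2.26 to 5.55 FPKM in SR86 SW. LOC_Os01g46760 had 3.01, 1.14 and 1.03 FPKM across SR86 FW, 0.64 to 1.13 FPKM in R1 and 1.14 to 1.69 FPKM in SR86 SW. Apart from SR86 FW1, the groups overlapped or touched in all 3 loci, except that the SW libraries of LOC_Os01g46760 were all above the R1 libraries. That gap, between 1.14 and 1.13 FPKM, is only the last decimal of the values.

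The 4 highly expressed members varied much less. LOC_Os01g62760 had 68.3, 53.5 and 46.5 FPKM across SR86 FW, 47.8 to 51.6 FPKM in R1 and 43.9 to 54.4 FPKM in SR86 SW. LOC_Os01g40094 had 53.4, 38.5 and 32.6 FPKM across SR86 FW, 39.6 to 43.5 FPKM in R1 and 36.2 to 39.1 FPKM in SR86 SW. In both, SR86 FW1 was highest, at 1.26 and 1.23 times the next library. The groups otherwise overlapped in LOC_Os01g62760, while in LOC_Os01g40094 every R1 library was above every SR86 library other than SR86 FW1. How many of all features did the same was not counted. LOC_Os05g51510 was the steadiest member, with 17.6 to 19.7 FPKM in SR86 FW, 20.0 to 21.3 FPKM in R1 and 19.6 to 21.1 FPKM in SR86 SW. Its highest library was 1.21 times its lowest, where the other members ran from 1.56 to 18.5 times. SR86 FW1, at 18.1 FPKM, was there between the other SR86 FW libraries.

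LOC_Os05g46040 was the member whose 3 groups separated. It had 26.7, 26.6 and 22.1 FPKM across SR86 FW, 20.1, 19.1 and 20.5 FPKM across R1 FW, and 13.1, 17.7 and 16.8 FPKM across SR86 SW. Every SR86 FW library was above every R1 library, and every R1 library was above every SR86 SW library. SR86 FW1 and SR86 FW2 were level here, so the pattern does not rest on SR86 FW1. Separate groups were common, with no overlap in 44.9% of all features tested between SW and FW and in 50.9% between SR86 and R1. How many features separated in all 3 groups was not counted.

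LOC_Os05g49730 was barely detected. It had 0.23, 0.21 and 0.22 FPKM across R1 FW, 0.12, 0.08 and 0.26 FPKM across SR86 FW, and 0.18, 0.27 and 0.48 FPKM across SR86 SW. With the relative depths, these values were multiples of a common step of 2 to 20 steps, so that, if a step is 1 read, SR86 FW1 and SR86 FW2 rested on 2 reads each and SR86 SW3 on 20. It was under the filter of a mean of 0.5 FPKM in both comparisons. With no filter its log2 fold change was 0.30 for SW over FW (95% interval -0.13 to 0.74, limma adjusted p = 0.322) and -0.15 for SR86 over R1 (95% interval -0.44 to 0.14, limma adjusted p = 0.431), with SR86 FW1 among its low libraries. The pseudocount of 0.5 FPKM is above every value of this locus, so these fold changes and intervals are compressed. Mean levels were 0.31 FPKM in SR86 SW and 0.153 FPKM in SR86 FW (SD 0.154 and 0.0945). With so few reads, a difference in this locus was neither shown nor excluded.

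The comparison of SR86 roots in SW and FW addresses which genes respond to salt in the tolerant cultivar. Differences of log2(FPKM + 0.5) were tested with limma. A call needed an adjusted p (Benjamini-Hochberg, over all features tested) under 0.05 together with a change of 2-fold or more. None of the 8 members tested was called (0 of 8), whereas 12.7% of the 23718 features tested were. At an unadjusted p under 0.05, 1 member of 8 passed, and 39.1% of all features did. The mean was lower in SW for 7 of the 8, with a median log2 fold change of -0.25, where the median of all features tested was 0.17. After median-ratio size factors the medians were -0.41 for the members and 0.02 for all features, and the mean was lower in SW for all 8, LOC_Os05g51510 included. This direction depends on SR86 FW1. Without it, 5 of the 8 had a higher mean in SW and the median was 0.11, and again 0 of 8 were called, against 4.14% of all features.

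LOC_Os05g46040 was the 1 member with an unadjusted p under 0.05 between SW and FW. Its log2 fold change was -0.65 (standard error 0.172, 95% interval -1.06 to -0.24, limma adjusted p = 0.0426), so it met the limit on p but not the 2-fold limit. Over 14 alternatives the log2 fold change ran from -0.82 to -0.52 and the limma adjusted p from 0.00897 to 0.134, and the p was under the limit in 7 of them. Without SR86 FW1 the log2 fold change was -0.61 (limma adjusted p = 0.105).

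LOC_Os09g15670 had the largest estimated difference between SW and FW and the widest interval. The log2 fold change was -1.61 (standard error 0.782, 95% interval -3.46 to 0.25, limma adjusted p = 0.173). Although all 3 SW libraries were below all 3 FW libraries, the size rested on SR86 FW1, and without that library it was -0.63 (95% interval -1.36 to 0.10, limma adjusted p = 0.200). Over the 14 alternatives its limma adjusted p ran from 0.0943 to 0.344. Non-overlapping SW and FW libraries were found in 2 of the 8 members, LOC_Os09g15670 and LOC_Os05g46040, and in 44.9% of all features tested.

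The other 6 members had limma adjusted p from 0.402 to 0.797, which does not show that the groups were alike. LOC_Os05g51510, LOC_Os01g62760 and LOC_Os01g40094 had log2 fold changes of 0.15, -0.22 and -0.10, and their 95% intervals lay between -0.65 and 0.46, short of 2-fold either way. LOC_Os03g16170 (-0.29, 95% interval -1.65 to 1.08), LOC_Os05g38290 (-0.38, 95% interval -1.66 to 0.91) and LOC_Os01g46760 (-0.15, 95% interval -1.03 to 0.74) were much less certain, and a 2-fold fall in SW lay inside each interval. Without SR86 FW1, the log2 fold changes of these 3 were 0.27, 0.25 and 0.24.

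**Figure D2:**
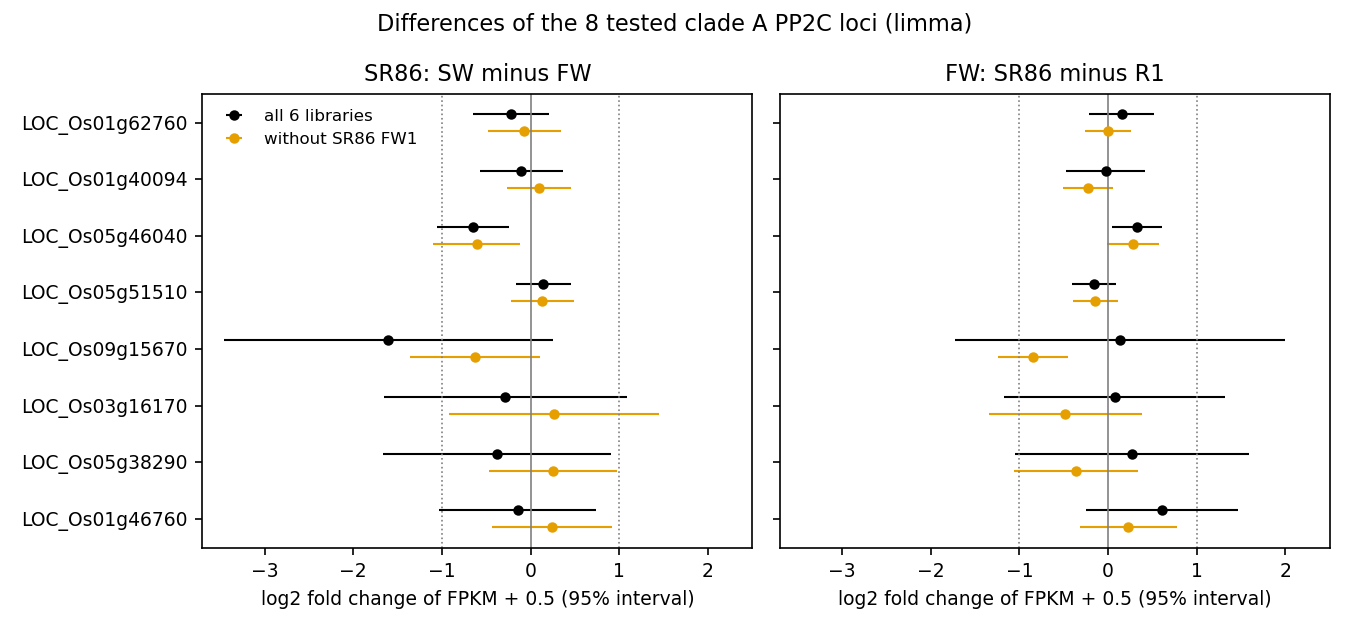
Differences of the 8 tested clade A loci between SW and FW in SR86 (left) and between SR86 and R1 in FW (right). Points are limma log2 fold changes of FPKM + 0.5 with 95% intervals, in black with all 6 libraries and in orange without SR86 FW1, and dotted lines mark 2-fold. LOC_Os09g15670 moves from -1.61 to -0.63 on the left and from 0.13 to -0.84 on the right, while LOC_Os05g46040 and LOC_Os05g51510 hardly move.

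The comparison of SR86 and R1 in FW asks what distinguishes the cultivars before salt is applied, and it shares the SR86 FW libraries with the comparison above. Again 0 of the 8 tested members were called, where 14.1% of the 23168 features tested were, and 1 member, LOC_Os05g46040, had an unadjusted p under 0.05, as did 44.1% of all features. The mean was higher in SR86 for 6 of the 8, with a median log2 fold change of 0.14 against -0.03 over all features tested. Without SR86 FW1 it was higher for 3 of the 8, with a median of -0.18, and 0 of 8 were called against 13.2% of features. Libraries of the strains did not overlap in LOC_Os05g46040 and LOC_Os05g51510, 2 of 8 members, and in 50.9% of the features tested. Of the leaf markers, LOC_Os01g41710 was called higher in SR86 (limma adjusted p = 0.0436, and 0.00933 without SR86 FW1), and its part in these values was not tested.

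LOC_Os05g46040 was higher in SR86 by a log2 fold change of 0.33 (standard error 0.116, 95% interval 0.05 to 0.61, limma adjusted p = 0.0775), and without SR86 FW1 by 0.28 (limma adjusted p = 0.127). LOC_Os05g51510 was lower in every SR86 FW library than in any R1 library, with a log2 fold change of -0.16 (standard error 0.103, 95% interval -0.40 to 0.09, limma adjusted p = 0.277). For both loci the interval lay well inside 2-fold. LOC_Os09g15670 showed how far 1 library can carry an estimate. With all 6 libraries its log2 fold change was 0.13 (95% interval -1.73 to 1.99, limma adjusted p = 0.909), and without SR86 FW1 it was -0.84 (95% interval -1.24 to -0.45, limma adjusted p = 0.0189), which meets the limit on p and not the 2-fold limit. Over its 14 alternatives the limma adjusted p ran from 0.0189 to 0.942.

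The other 5 members had log2 fold changes between SR86 and R1 of -0.03 for LOC_Os01g40094, 0.15 for LOC_Os01g62760, 0.07 for LOC_Os03g16170, 0.27 for LOC_Os05g38290 and 0.61 for LOC_Os01g46760, with limma adjusted p from 0.228 to 0.924. Among these 5, the 95% interval stayed short of 2-fold in LOC_Os01g40094 and LOC_Os01g62760 only. Without SR86 FW1 they were -0.22, 0.00, -0.48, -0.36 and 0.23 in the same order. An exact permutation test of a single locus with 3 libraries against 3 cannot give a p below 0.1, so the tests rest on the fit across all features.

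The spread inside groups was uneven. The median coefficient of variation of the 8 members was 4.27% in R1 FW, 45.1% in SR86 FW and 17.9% in SR86 SW, where all features with a mean of at least 0.5 FPKM had medians of 9.73%, 24.4% and 18.9%. In R1, 3 of the 8 members were above the median of all features, and in SR86 FW 5 of the 8. Over SR86 FW2 and SR86 FW3 alone, the median was 12.4% for the members and 19.0% for all features, and 2 of the 8 members were above it.

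Dehydrin and LEA genes, which the pathway can switch on, were also highest in SR86 FW1, and ABA itself was not measured. The list fixed for dehydrins and LEA proteins held 9 loci, given by locus number from general knowledge of rice genes, of which the tables of the paper annotate 6 as dehydrin or LEA. All 8 with a mean of at least 0.5 FPKM were highest in SR86 FW1, and 6 were there at least 1.5 times as high as in any other library. The 3 loci named next were chosen after their values were seen. No locus of the list was called in either comparison by the test used here, whereas the 6 annotated loci are among those the paper called by edgeR. LOC_Os11g26790, a dehydrin, had 308 FPKM in SR86 FW1 and 1.19 to 22.9 FPKM in the other 8 libraries. LOC_Os11g26750, another dehydrin, had 223 FPKM against 0.39 to 8.84 FPKM, and LOC_Os05g46480, a LEA protein of group 3, had 115 FPKM against 2.07 to 32.2 FPKM. SR86 FW1 was thus the highest library for 7 of 9 phosphatases, for 8 of 8 dehydrins or LEA proteins and for 4 of 4 leaf markers with a mean of at least 0.5 FPKM, and it had the lowest sum of the root markers. The part of the leaf and root marker levels in these results was not tested.

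**Figure D3:**
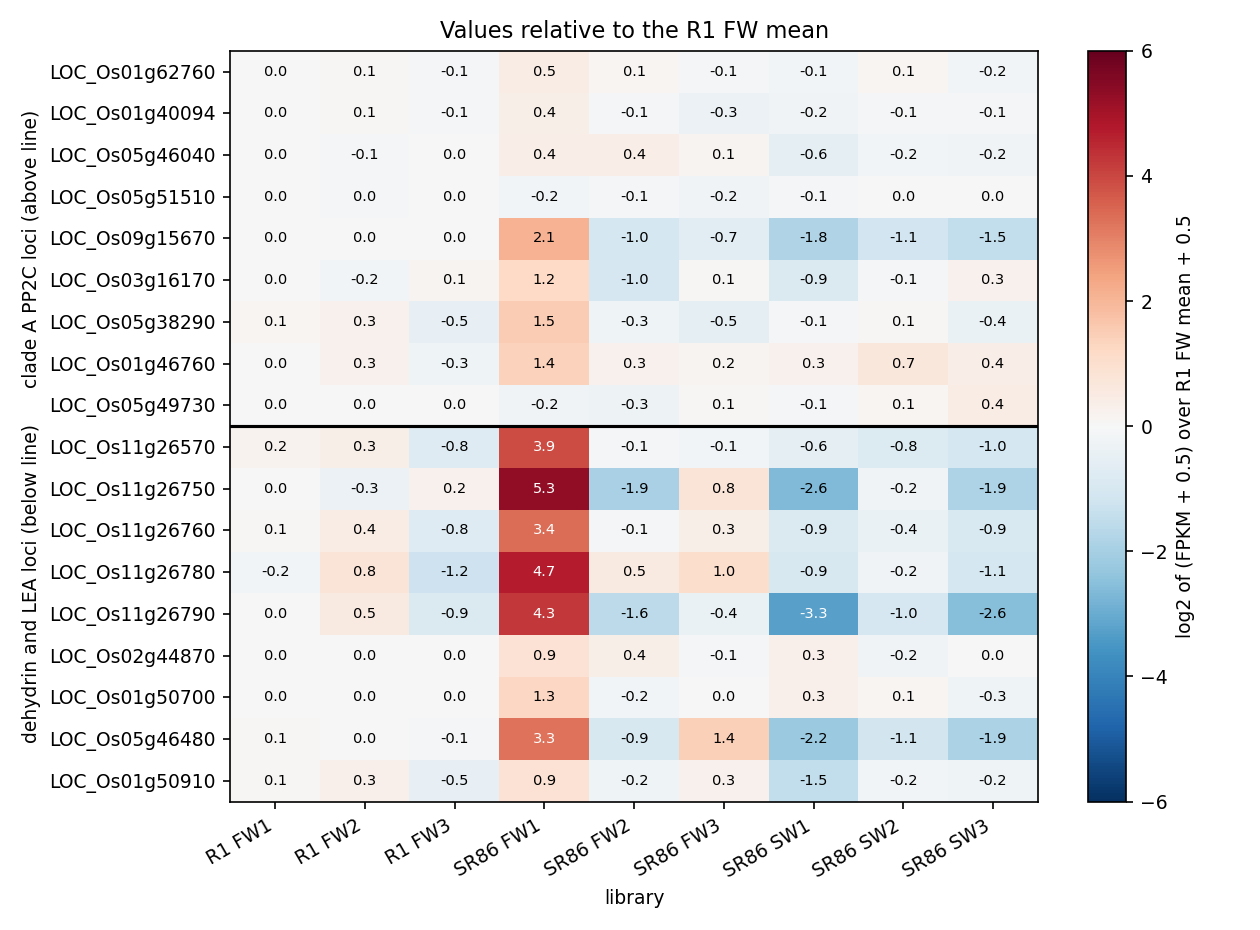
Log2 of FPKM + 0.5 over the R1 FW mean + 0.5 for the 9 clade A PP2C loci (above the line) and 9 dehydrin and LEA loci (below it), by library. The SR86 FW1 column is the reddest, with 2.1 for LOC_Os09g15670 and 5.3 for LOC_Os11g26750, while in the SR86 SW columns LOC_Os09g15670 runs from -1.8 to -1.1.

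The other steps of the pathway were described in the same fits, over lists of locus numbers fixed from general knowledge, most of which the files and the paper do not annotate. Of 44 loci in 6 lists, 35 were tested between SW and FW and 4 (11.4%) were called, all lower in SW, against 12.7% of all features. The calls were 1 of 7 tested receptors, 2 of 10 SnRK2 kinases and 1 of 5 bZIP factors, with 0 called among 3 tested NCED enzymes of ABA synthesis, 2 tested ABA hydroxylases of ABA breakdown and 8 tested dehydrins and LEA proteins. At an unadjusted p under 0.05, the 6 lists had 2, 3, 4, 1, 1 and 2 loci in this order, where 39.1% of all features passed. The median log2 fold changes of the lists in this order were -0.24, -0.14, -0.60, -0.61, 0.00 and -2.45, against 0.17 over all features. Without SR86 FW1, 2 of the 4 calls were kept and the median of the dehydrins and LEA proteins was -0.91. Without SR86 FW2 1 locus was called, and 0 were called without SR86 SW1 or without SR86 SW2.

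Among the calls were 2 loci of the SnRK2 list, which the paper's tables annotate only as kinases of the calcium/calmodulin-dependent (CAMK) group. Whether the members act on these kinases was not tested. LOC_Os03g41460, on the SnRK2 list, fell in SW, with 6.30 ± 0.943 FPKM in FW and 2.16 ± 0.390 FPKM in SW (SD, n = 3 each), a log2 fold change of -1.35 (limma adjusted p = 0.0172), and also without SR86 FW1 (limma adjusted p = 0.0495). LOC_Os03g27280, on the same list, fell from 63.8 ± 2.83 to 31.9 ± 7.47 FPKM (log2 fold change -1.02, limma adjusted p = 0.0222), and without SR86 FW1 the log2 fold change was also -1.02, with a limma adjusted p of 0.0631. LOC_Os06g36670, on the receptor list and annotated in the Bet v I family, to which the ABA receptors belong, fell from 9.27 ± 4.52 to 2.71 ± 0.229 FPKM (log2 fold change -1.51, limma adjusted p = 0.0282), and was called without SR86 FW1 too (limma adjusted p = 0.0473). LOC_Os06g10880, an annotated bZIP factor, fell from 5.53 ± 2.31 to 1.32 ± 0.509 FPKM (log2 fold change -1.70, limma adjusted p = 0.0291), and without SR86 FW1 the log2 fold change was -1.42 with a limma adjusted p of 0.0739. Among these 4 loci, SR86 FW1 was the highest library for the receptor and the bZIP factor only, at 2.05 and 1.54 times the next library. Markers also differed between SW and FW, though none was called. The root markers LOC_Os02g51110 and LOC_Os03g01700 had log2 fold changes of 0.93 and 0.90 (limma adjusted p = 0.178 and 0.102), and the latter was higher in every SW library than in any SR86 FW library. The 4 tested leaf markers had log2 fold changes of -1.88 (LOC_Os01g41710) to -0.07 (LOC_Os09g17740), with limma adjusted p from 0.108 to 0.966. Their part in these falls was not tested.

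Between SR86 and R1 in FW, 3 of 35 tested pathway loci were called (8.57%, against 14.1% of all features). LOC_Os12g39630, on the SnRK2 list, was higher in SR86, at 87.2 ± 13.9 FPKM (SD, n = 3) against 22.8 ± 2.28 FPKM in R1 (log2 fold change 1.90, limma adjusted p = 0.000539). The NCED loci LOC_Os07g05940 and LOC_Os02g47510 were lower in SR86, at 1.02 ± 0.272 against 4.42 ± 0.798 FPKM (log2 fold change -1.70, limma adjusted p = 0.00333) and at 0.120 ± 0.050 against 1.2 ± 0.630 FPKM (log2 fold change -1.39, limma adjusted p = 0.0207). LOC_Os02g47510 had at most 0.17 FPKM in SR86 FW, so it passed the filter of a mean of 0.5 FPKM only through R1, where it was high. Its call is therefore weak support for a difference. NCED enzymes make the committed cleavage in ABA synthesis. The paper annotates both loci as such only putatively, and their part in ABA synthesis was not tested. All 3 calls were kept without SR86 FW1, and LOC_Os12g42280, an NCED locus named after its values were seen, was then called lower as well. Its log2 fold change was -1.01 with all 6 libraries (limma adjusted p = 0.153) and -1.48 without SR86 FW1 (limma adjusted p = 0.0441), with 33.0 ± 3.96 FPKM in R1 and 31.0, 18.3 and 7.11 FPKM across SR86 FW. Receptors, bZIP factors, ABA hydroxylases and dehydrins or LEA proteins had 0 calls, with 3, 2, 1 and 0 loci at an unadjusted p under 0.05, which 7 of 10 SnRK2 kinases, 2 of 4 NCED enzymes and 44.1% of all features also met.

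Likeness among the members was described by Pearson's r of log2(FPKM + 0.5) over the 9 libraries, which share depth and scaling. The 36 pairs ran from -0.59 to 0.88 with a median of 0.385, and 9 pairs were over 0.7. The most alike pair was LOC_Os05g38290 and LOC_Os01g40094 (r = 0.88), and LOC_Os09g15670 was over 0.7 with LOC_Os01g40094, LOC_Os01g62760, LOC_Os05g38290 and LOC_Os03g16170. Most of this likeness was that of 1 library, since without SR86 FW1 the median was 0.145, none of the 9 pairs was over 0.7, and LOC_Os05g38290 and LOC_Os01g40094 had r = 0.62. Over 0.7 in these 8 libraries were 2 other pairs, LOC_Os03g16170 with LOC_Os05g49730 (0.79) and LOC_Os05g51510 with LOC_Os01g40094 (0.75). LOC_Os05g49730 was under the filter, at 0.08 to 0.48 FPKM, so its r rests on few reads.

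**Figure D4:**
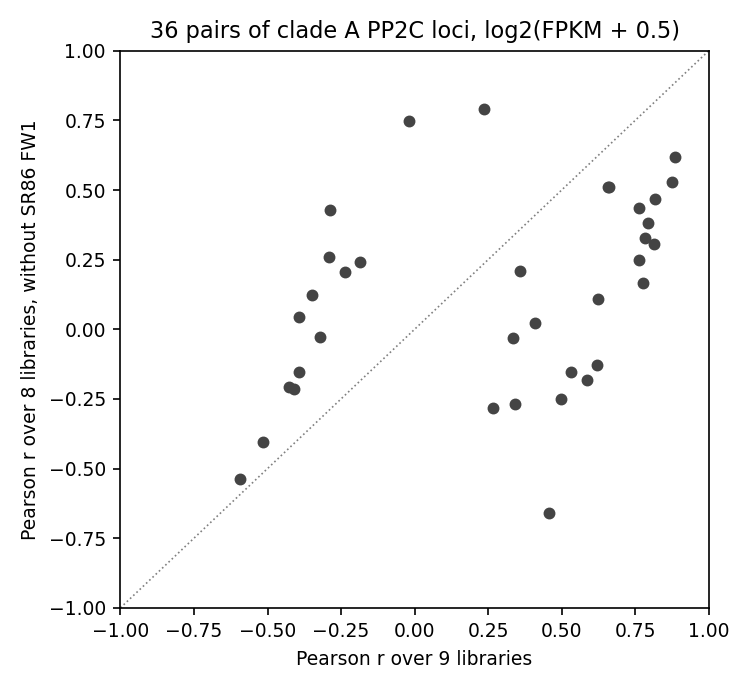
Pearson's r of the 36 pairs of clade A loci over 9 libraries (horizontal) and over the 8 libraries without SR86 FW1 (vertical), each point a pair, with a dotted line where both are equal. The 9 pairs to the right of 0.7 all lie below the line, between 0.17 and 0.62 on the vertical axis.

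Features closest to the 3 members of the highest level were found by the same measure over 9 libraries. They were picked out of 23780 features, so a high r follows in part from the choice. For LOC_Os05g46040 they were LOC_Os03g11780 (an expressed protein, r = 0.98) and LOC_Os04g59440 (a chlorophyll A-B binding protein, r = 0.98), with r of 0.98 and 0.97 without SR86 FW1. LOC_Os03g11780 had 51.4 to 94.0 FPKM in SR86 FW, 28.5 to 37.1 FPKM in R1 and 8.43 to 18.7 FPKM in SR86 SW, the group order of LOC_Os05g46040 with wider steps. For LOC_Os01g62760 they were LOC_Os10g34270 (r = 0.97) and LOC_Os05g07730 (r = 0.95), with r of 0.92 and 0.86 without SR86 FW1. For LOC_Os01g40094 they were LOC_Os03g57210 and LOC_Os10g37410 (both r = 0.97), with r of 0.92 and 0.90 without SR86 FW1. The sources used here annotate none of these neighbours of LOC_Os01g62760 and LOC_Os01g40094. LOC_Os09g15670, looked at after its values were seen, was closest to LOC_Os03g60580 (actin-depolymerizing factor, r = 0.99) and LOC_Os04g33920 (LTPL102, r = 0.98). Without SR86 FW1 these r were 0.98 and 0.94. LOC_Os03g60580 had 49.8 FPKM in SR86 FW1 and 1.07 to 7.14 FPKM in the other libraries.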

How the data were processed

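Quality trimming by the authors used Trimmomatic, and reads were aligned with Bowtie2 against MSU6 transcripts. RSEM then gave levels, dividing reads that similar transcripts share. The deposited values are FPKM rounded to 2 decimals, in 9 columns matched to libraries by their labels. The methods name TMM normalization after RSEM, without saying whether the deposited columns carry it. One sentence of the methods exchanges the cultivars between waters, and the labels were followed. FPKM values are not counts, so the edgeR test of the authors was not run.

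A mean of 0.5 FPKM in a comparison's 6 libraries was required for testing, on log2(FPKM + 0.5), by limma 3.58.1 in R 4.3.3. This scale understates changes of low genes. Relative read numbers came from ratios between libraries of low values in 5252 features. The fit and the depth estimate were tested on simulated data. The methods speak of biological replicates but name no separate cultures, so p-values measure the spread between these libraries.

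The members and lists were chosen with earlier results of these data known. Annotations are the words of the paper's tables of differentially expressed genes, whose fold changes and p-values were not used. An annotated locus is therefore one that the paper called. Named pathway loci are, per list, at most 2 called without overlap and with the largest change, and for the 3 highest members the 2 closest features are named. Of the deposited features, 0 were found in the reference table, so symbols and sequences are not given. The alternatives changed the pseudocount (0.1 or 1), the filter (none or a mean of 1), the scaling (quantile or median-ratio), the libraries fitted (all 9, or 1 left out), or added a replicate block. Other tools were Python 3.11.15, pandas 2.3.3, scipy 1.17.1 and matplotlib 3.10.9.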

Additional observations from a re-analysis of the deposited data

How the results depend on the processing

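Under the 14 alternatives tried in each comparison, 0 members were called. Of 112 recomputed log2 fold changes of members per comparison, 106 (SW over FW) and 104 (SR86 over R1) kept their direction. Of those that turned, most did so when 1 library was left out. For SW over FW, leaving out each library gave -0.26 to 0.092 for LOC_Os01g40094, -0.362 to 0.237 for LOC_Os01g46760, -0.834 to 0.268 for LOC_Os03g16170 and -0.757 to 0.255 for LOC_Os05g38290. The upper value was in each case that without SR86 FW1, and LOC_Os03g16170 was also at 0.038 without SR86 SW1. For SR86 over R1 it gave -0.222 to 0.13 for LOC_Os01g40094, -0.48 to 0.621 for LOC_Os03g16170, -0.359 to 0.653 for LOC_Os05g38290 and -0.844 to 0.717 for LOC_Os09g15670, each lowest without SR86 FW1. LOC_Os01g40094 was also above 0 without R1 FW2 or SR86 FW2, and LOC_Os03g16170 below 0 without R1 FW2. With median-ratio size factors, LOC_Os05g51510 turned to -0.02 for SW over FW and LOC_Os01g40094 to 0.013 for SR86 over R1. The cause was not tested.

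For SW over FW, 3012 features were called, 1804 with no filter and 60 to 3822 when a library was left out, with the lowest counts lacking SR86 SW1 (60), SR86 FW2 (358), SR86 SW2 (623) and SR86 FW1 (983). For SR86 over R1, 3261 were called, and 1646 to 4761 when a library was left out, with the lowest lacking R1 FW1 (1646) and R1 FW3 (1853). Pathway loci called for SW over FW were 8 in the fit of all 9 libraries and 0 to 5 when a library was left out, and for SR86 over R1 2 to 6 (6 lacking SR86 FW3). Pairs of members with r over 0.7 were 9 in all libraries and 2 lacking SR86 FW1. The alternatives for these pairs and for the pathway loci, and those of the level order and the SR86 FW1 counts, were added after the data were seen.

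Whether the replicate numbers pair the libraries cannot be settled from 3 libraries per group. Deviations from the group mean in libraries of the same number correlated at -0.057, 0.011 and 0.153 (SW and FW) and at -0.034, 0.221 and 0.256 (SR86 and R1). Between different numbers they correlated at -0.186 to 0.205 and at -0.356 to 0.213. With a replicate block, 2048 and 3489 features and 0 members were called.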
